A study of Mus musculus with 12 samples.

Results

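Mgp and the genes of mineralization were followed in cultured mouse fibro/adipogenic progenitors (FAPs), the PDGFRα-positive mesenchymal cells of skeletal muscle. The genes were Mgp, Alpl, Enpp1, Spp1, Runx2, Sp7 and Ibsp, and a gene was taken where the platform annotation gave it a transcript cluster of its own, that is, a probe group with a single gene symbol. This held for 4 of the 7 genes, Mgp, Alpl, Sp7 and Ibsp, with 1 cluster each among 21789 single-symbol clusters for 19938 genes. Enpp1, Spp1 and Runx2 were not analysed here. The genes were selected on measured values, with the change of Mgp with PDGF-AA in view, so the PDGF-AA changes below are descriptions with no test. Tests are given for the comparisons between oligonucleotides and for the differences between their PDGF-AA effects, which do not use that average.

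Wild-type FAPs came from uninjured hindlimb muscle of male C57/Bl6 mice aged 8 to 12 weeks, with 2 mice pooled for each biological replicate. Every culture was transfected with 10 µM of an antisense oligonucleotide (AMO), and the controls were transfected as well. The pA AMO covers the polyadenylation site in an intron of Pdgfra, the gene of the PDGF-AA receptor, the 5'ss AMO covers a 5' splice site, and the control AMO is the comparator. The 6 groups of 2 arrays were pA AMO with PDGF-AA, pA AMO without it, 5'ss AMO with and without it, and control AMO with and without it, where the labels give a PDGF-AA dose of 50 uM. That is a high concentration for a growth factor, and whether the unit is right could not be checked here. RNA was taken after 48 hours of the second transfection, and expression was read on Affymetrix Mouse Gene 1.0 ST arrays as log2 values.

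Tissue mineralizes when calcium phosphate forms crystals in a collagen matrix, and soft tissues hold inhibitors against it. Mgp encodes matrix Gla protein, a small secreted protein whose glutamates are carboxylated with the help of vitamin K and which keeps arteries and cartilage free of mineral; mice that lack it calcify their arteries. Alpl encodes tissue-nonspecific alkaline phosphatase, which removes pyrophosphate, another inhibitor. Sp7 (osterix) is a transcription factor that osteoblasts need, and Ibsp encodes bone sialoprotein, an acidic protein of mineralizing matrix. Mesenchymal cells of muscle are known as a source of ectopic bone in mouse models.

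All 7 measured FAP and fibroblast markers were bright, above the 40 percent mark of cluster means (6.10), from Thy1 with a mean of 8.70 to Dcn with 13.32. By its definition 13073 of the 21789 clusters lay above this mark, so passing it is common and does not show that a cell type was present. Among markers of other cells, 10 of 11 myogenic genes passed this mark, against 7 of 10 smooth muscle and pericyte, 6 of 8 tendon, 4 of 8 endothelial, 3 of 11 macrophage and leukocyte, 2 of 8 cartilage and 2 of 6 osteoblast and osteocyte genes. The 2 osteoblast genes above it were Alpl and Sost. Arrays of the same replicate number resembled each other across groups, so values within replicate 1 and replicate 2 are given beside several results. No label says whether the replicates of different groups came from the same cells.

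Mgp (transcript cluster 10548879) was lower with PDGF-AA in each of the 3 AMO backgrounds. With pA AMO it read 10.25 and 10.47 on the arrays with PDGF-AA and 10.67 and 10.76 without. With 5'ss AMO it read 10.36 and 10.39 with PDGF-AA and 10.60 and 10.67 without. With control AMO it read 10.07 and 9.96 with PDGF-AA and 10.70 and 10.60 without. All 6 arrays with PDGF-AA lay below all 6 without it, a separation in this direction that 0.115% of the 21789 clusters showed. On average Mgp stood at 10.25 ± 0.199 with PDGF-AA and 10.67 ± 0.0603 without (SD, n = 6 each), a log2 change of -0.42 (SE 0.0605), or 25% less signal on the linear scale. There were 33 clusters with a more negative averaged change. Mgp was chosen with this change in view, so its rank and the separation of its arrays are descriptions and no support. Within each AMO the 2 arrays with PDGF-AA also lay below the 2 without, as in 12.3% of clusters with pA AMO, 10.5% with 5'ss AMO and 13.6% with control AMO. In these bulk cultures fewer cells that express a gene and less RNA per cell cannot be told apart.

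**Figure D1:**
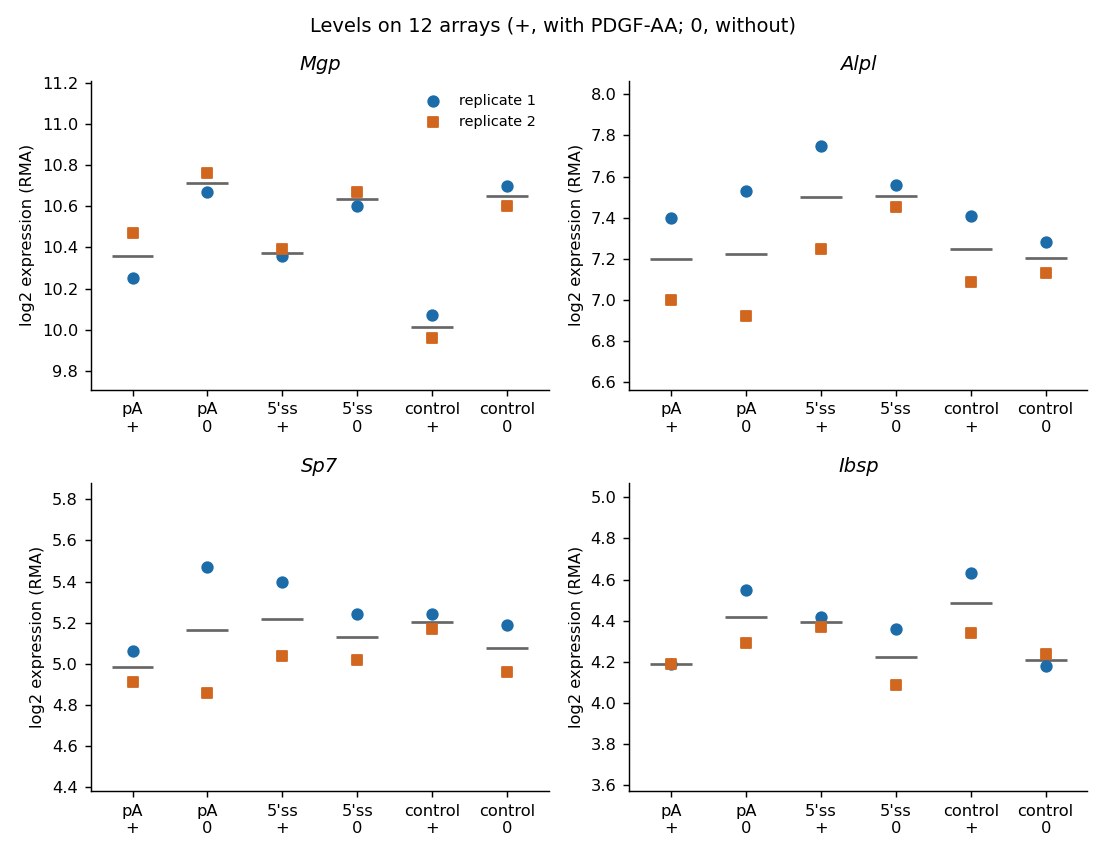
Log2 expression of Mgp, Alpl, Sp7 and Ibsp on the 12 arrays, by AMO and PDGF-AA (+, with; 0, without), with replicate 1 as circles, replicate 2 as squares and the group mean as a bar; each panel has its own log2 range of equal height. Mgp is lower with PDGF-AA for every AMO, down to 9.96 with control AMO, while replicate 1 of Alpl and Sp7 lies above replicate 2 in all 6 groups.

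The Mgp decrease was numerically largest with control AMO, though no difference between AMO backgrounds passed the test. PDGF-AA minus no PDGF-AA was -0.35 with pA AMO, -0.26 with 5'ss AMO and -0.63 with control AMO (SE 0.105 each), so that the linear signal decreased by 21.7%, decreased by 16.6% and decreased by 35.5%. Within replicate 1 these changes were -0.42, -0.24 and -0.63, and within replicate 2 they were -0.28, -0.28 and -0.64. The control AMO change was thus nearly the same in both replicates, and it exceeded the changes with the other AMOs in each. The 3 changes were then tested against each other, a comparison that does not use their average. The genes were chosen with earlier results of these data known, so the choice may not be independent of this comparison. Between pA and control AMO the changes differed by 0.28 (SE 0.148, unadjusted p = 0.0886 in limma, adjusted p = 0.9996). Between 5'ss and control AMO they differed by 0.37 (SE 0.148, unadjusted p = 0.0312 in limma, adjusted p = 1.0). The 5'ss and pA AMO changes differed by 0.09 (SE 0.148, limma adjusted p = 0.9998). None passed, and the first 2 differences share the control AMO arrays.

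By their order the group means of Mgp fell into 3 levels, though no AMO difference between the lower 2 levels passed the test. The 3 groups without PDGF-AA were highest, at 10.71 ± 0.0588 with pA AMO, 10.64 ± 0.0518 with 5'ss AMO and 10.65 ± 0.0706 with control AMO (SD, n = 2 each), and neighbours among them differed by no more than their spread. PDGF-AA with 5'ss AMO (10.38 ± 0.0208) and PDGF-AA with pA AMO (10.36 ± 0.155) came next and overlapped each other. PDGF-AA with control AMO was lowest, at 10.01 ± 0.0768. Without PDGF-AA, pA minus control AMO was 0.07 and 5'ss minus control AMO was -0.01 (SE 0.105 each).

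In the presence of PDGF-AA, Mgp read higher under either Pdgfra-directed AMO than under control AMO. The difference was 0.35 for pA AMO (SE 0.105, unadjusted p = 0.00765 in limma, adjusted p = 0.949) and 0.36 for 5'ss AMO (SE 0.105, unadjusted p = 0.00604 in limma, adjusted p = 0.789). With the replicate block the adjusted p were 0.227 and 0.155 in limma. In both cases the 2 arrays lay above both control AMO arrays, as did 12.3% of all clusters for pA AMO and 12.5% for 5'ss AMO, so this separation of 2 arrays against 2 is common. The pA difference was 0.18 in replicate 1 and 0.51 in replicate 2, and the 5'ss difference 0.29 and 0.43. Averaged over PDGF-AA, Mgp differed from control AMO by 0.21 with pA AMO and by 0.18 with 5'ss AMO (SE 0.0741 each, limma adjusted p = 0.9999 and 0.995). The control AMO arrays are shared by both comparisons.

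Smooth muscle and pericyte markers, cells that also make Mgp, were summed as the mean log2 of the 10 genes on each array. That mean ran from 6.71 to 7.03 with PDGF-AA and from 6.88 to 7.15 without, and in the control AMO groups it was 6.75 with PDGF-AA and 6.95 without. Of the 10 genes 5 were higher and 5 lower with PDGF-AA on average, with a median change of -0.02. Acta2, smooth muscle actin, had the most negative averaged change at -0.72, and Mcam the most positive at 0.12. The tendon markers ran from 7.27 to 7.86 with PDGF-AA and from 7.65 to 7.92 without. With 5'ss AMO the tendon mean was 7.80 with PDGF-AA and 7.70 without. Of the 8 tendon genes 7 were lower with PDGF-AA on average, with a median change of -0.102. Comp, a tendon matrix protein, had the most negative change of these at -0.88. The brightest genes of the lists were Acta2 and Comp, with means of 9.28 and 9.56, and the dimmest were Rgs5 and Kera, with 4.93 and 5.43. The part of these cells in the Mgp values was not tested.

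Alpl (transcript cluster 10517587) did not follow Mgp. With pA AMO it read 7.40 and 7.0 with PDGF-AA and 7.53 and 6.92 without. With 5'ss AMO it read 7.75 and 7.25 with PDGF-AA and 7.56 and 7.45 without, and with control AMO 7.41 and 7.09 with PDGF-AA and 7.28 and 7.13 without. Replicate 1, the first value of each pair, was the higher in all 6 groups, and the means were 7.49 in replicate 1 and 7.14 in replicate 2. The means with and without PDGF-AA were 7.32 ± 0.269 and 7.31 ± 0.249 (SD, n = 6 each), a difference of 0.0033 (SE 0.131). The replicate number held 53.9% of the sum of squares of Alpl over the 12 arrays, the AMO 31.8% and PDGF-AA 0% after rounding. For Mgp these shares differed, with PDGF-AA at 70.5%, the AMO at 13.7%, their interplay at 10.2% and the replicate number at 0.4%.

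Alpl was numerically highest with 5'ss AMO. Averaged over PDGF-AA, it was 0.29 above pA AMO (SE 0.161, unadjusted p = 0.0998 in limma, adjusted p = 1.0) and 0.27 above control AMO (SE 0.161, unadjusted p = 0.118 in limma, adjusted p = 0.995). Taking out the replicate number reduced the SE to 0.0848 and the unadjusted p to 0.00722 and 0.00987, while the limma adjusted p were 0.399 and 0.284. Against control AMO the difference was 0.31 in replicate 1 and 0.23 in replicate 2, and against pA AMO it was 0.20 and 0.39. Single arrays moved these differences by more than 1.5 times. Against control AMO the difference was 0.15 without replicate 1 of 5'ss AMO with PDGF-AA, and against pA AMO it was 0.14 without replicate 2 and 0.44 without replicate 1 of pA AMO without PDGF-AA. Without PDGF-AA, both 5'ss AMO arrays were above both control AMO arrays, as in 12.6% of clusters; with PDGF-AA they overlapped. The 3 differences between PDGF-AA effects were between -0.07 and 0.02 for Alpl, with an SE of 0.321 each, or 0.17 with the replicate block. The error without the block is wide enough to hide differences as large as those of Mgp.

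The myogenic markers, like Alpl, were higher in replicate 1. Their mean log2 over 11 genes was 7.39 in replicate 1 and 7.02 in replicate 2. The array means ran from 6.98 to 7.46 with PDGF-AA and from 6.69 to 7.85 without. Acta1 was the brightest of them at 10.08 and Myf5 the dimmest at 4.74. The osteoblast and osteocyte list, which holds Alpl, Sp7 and Ibsp, had a mean of 5.67 in replicate 1 and 5.51 in replicate 2. Other lists were also higher in replicate 1: cartilage (5.83 and 5.59), macrophage and leukocyte (5.72 and 5.60), and smooth muscle and pericyte (6.96 and 6.88). The FAP and fibroblast list (11.47 and 11.58) and the tendon list (7.58 and 7.71) were lower, and the endothelial list was at 6.19 in both. The part of any of these cells in the Alpl values was not tested.

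Alpl is transcribed from more than 1 start, and the array cluster does not separate them. The RefSeq windows of 250 bases before to 50 bases after each start (GRCm38.p6, minus strand) are shown. These windows set the start regions side by side, since the matches marked in them differ. They lie at chr4:137796335-137796634 for the first and at chr4:137766426-137766725 for the second. Capitals mark matches to GGGCGG, the GC box that Sp-family factors can bind, and to TATAAA, on either strand.
Alpl start 1: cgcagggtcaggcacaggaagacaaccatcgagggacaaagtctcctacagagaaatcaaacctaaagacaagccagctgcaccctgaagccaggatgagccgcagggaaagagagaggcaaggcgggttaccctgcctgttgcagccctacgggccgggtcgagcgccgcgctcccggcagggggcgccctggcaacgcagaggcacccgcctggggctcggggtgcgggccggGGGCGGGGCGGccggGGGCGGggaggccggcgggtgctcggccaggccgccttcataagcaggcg
Alpl start 2: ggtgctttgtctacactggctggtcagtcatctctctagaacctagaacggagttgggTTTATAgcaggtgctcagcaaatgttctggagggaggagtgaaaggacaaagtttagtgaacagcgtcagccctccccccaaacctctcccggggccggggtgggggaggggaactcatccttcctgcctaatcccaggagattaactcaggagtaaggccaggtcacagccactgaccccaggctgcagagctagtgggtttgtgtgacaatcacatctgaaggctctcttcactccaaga
The first window holds 3 GC boxes, at bases -15, -10 and 1 from the start, of which the first 2 overlap by a base, and no TATA box. The second holds no GC box and 1 TATAAA on the opposite strand, at base -192. Of all 32851 windows of this length in the table, 35.7% held GGGCGG and 13.6% held TATAAA. Neither window held ACCACA, the core that Runx factors bind, or CCAAT, found in 16.8% and 37.4% of windows. These matches are letters only and say nothing of binding in FAPs.

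Sp7 (transcript cluster 10433003) and Ibsp (transcript cluster 10523701) were dim. Their means over the 12 arrays were 5.13 and 4.32, at the 22.9 and 12.6 percentile of cluster means, while the clusters of Mgp and Alpl lay at the 95 and 59 percentile. Brightness also depends on the probes, so these places are not amounts of RNA. No detection call was used, and values this low may hold little signal from the gene.

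Sp7 read 5.06 and 4.91 with pA AMO and PDGF-AA and 5.47 and 4.86 with pA AMO alone. It read 5.40 and 5.04 with 5'ss AMO and PDGF-AA and 5.24 and 5.02 with 5'ss AMO alone, and 5.24 and 5.17 with control AMO and PDGF-AA and 5.19 and 4.96 with control AMO alone. Replicate 1 was again the higher in all 6 groups, and the replicate number held 56.3% of the sum of squares. The averaged PDGF-AA difference was 0.02 (SE 0.111). Its 9 AMO differences lay between -0.22 and 0.23, with a smallest unadjusted p of 0.251 in limma. With the replicate block the smallest unadjusted p was 0.0776 and the smallest adjusted p 0.443 in limma. The most negative difference, -0.22 for pA against control AMO with PDGF-AA, left both pA arrays below both control arrays, as in 19.2% of clusters.

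The PDGF-AA differences of Ibsp had different signs by AMO. With pA AMO it read 4.19 and 4.19 with PDGF-AA and 4.55 and 4.29 without, a difference of -0.23. With 5'ss AMO it read 4.42 and 4.37 with PDGF-AA and 4.36 and 4.09 without, a difference of 0.17, and with control AMO 4.63 and 4.34 with PDGF-AA and 4.18 and 4.24 without, a difference of 0.27 (SE 0.135 each). None of the 3 pairs of groups overlapped. When single arrays were left out, the difference ranged from -0.36 to -0.10 with pA AMO, from 0.04 to 0.30 with 5'ss AMO and from 0.12 to 0.42 with control AMO; the values nearest 0 were without replicate 1 of pA AMO alone, replicate 2 of 5'ss AMO alone and replicate 1 of control AMO with PDGF-AA. A separation in the same direction was seen in 12.3% of clusters with pA AMO, 9.13% with 5'ss AMO and 17.5% with control AMO. With PDGF-AA, pA minus control AMO was -0.30 and without it 0.21 (SE 0.135 each, limma adjusted p = 0.949 and 1.0), both without overlap, as in 19.2% and 10.5% of clusters in those directions. With PDGF-AA, 5'ss AMO was 0.20 above pA AMO without overlap, as in 14.9% of clusters. The pA effect was below the control AMO effect by a log2 difference of -0.50 (SE 0.191, unadjusted p = 0.0242 in limma, adjusted p = 0.9996), and it was -0.81 in replicate 1 and -0.20 in replicate 2. With the replicate block the unadjusted p of this difference was 0.00736 and its adjusted p 0.474 in limma. The 5'ss effect exceeded the pA effect by 0.40 (SE 0.191, unadjusted p = 0.0616 in limma, adjusted p = 0.9998). The AMO and PDGF-AA together held 51.4% of the sum of squares beyond their separate shares of 1.6% and 5.4%, on a total range of only 0.54 log2 units. The myogenic mean in the groups without PDGF-AA was 7.55 with pA AMO, 7.04 with 5'ss AMO and 7.13 with control AMO, and with PDGF-AA it was 7.13, 7.22 and 7.17; its part in the Ibsp values was not tested.

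The Ibsp window (chr5:104299037-104299336, GRCm38.p6, plus strand) is shown because this gene is known for core promoter boxes on the opposite strand, and both were found in this window. Capitals mark CCAAT and TATAAA, which here read on the other strand as ATTGG and TTTATA.
Ibsp start 1: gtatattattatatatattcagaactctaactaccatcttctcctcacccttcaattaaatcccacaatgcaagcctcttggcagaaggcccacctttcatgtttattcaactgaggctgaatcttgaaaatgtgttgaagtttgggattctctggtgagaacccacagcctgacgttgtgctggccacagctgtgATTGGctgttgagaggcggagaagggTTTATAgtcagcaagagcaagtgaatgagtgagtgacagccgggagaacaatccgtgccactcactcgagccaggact
The CCAAT match began at base -54 and the TATA match at base -28 from the start. The window held neither GGGCGG nor ACCACA. RefSeq promoter windows were found for Alpl and Ibsp, and Mgp and Sp7 are named only.

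Across the 4 genes and 9 AMO comparisons, 0 of 36 tests passed an adjusted p of 0.05 in limma. Of all clusters 0% passed in each of these 9 comparisons. At an unadjusted p under 0.05 there were 4 of the 36, all for Mgp, where between 1.49% and 6.0% of all clusters lay under it by comparison. With the replicate block there were 10, of which 4 were for Mgp, 5 for Alpl and 1 for Ibsp, where between 4.62% and 15.6% of all clusters did. In both fits the 4 for Mgp were pA and 5'ss against control AMO, each with PDGF-AA and averaged over it. They overlap and share control AMO arrays, so they are not 4 separate results. The 5 for Alpl also overlap. With the block the smallest adjusted p was 0.155, and again 0 of 36 passed. With the block 0.101% of clusters passed in the presence of PDGF-AA for 5'ss against control AMO, 0.00459% in its absence and 0.0138% on average. For 5'ss against pA AMO 0.0138% passed with PDGF-AA, 0.00459% without it and 0.0275% on average, and for pA against control AMO 0% passed in each case. Of the 12 tests of differences between PDGF-AA effects 0 passed with or without the block, as did 0% of clusters. At an unadjusted p under 0.05 there were 2 without the block, 1 for Mgp and 1 for Ibsp, where between 1.92% and 2.95% of all clusters lay under it, and 3 with the block, 1 for Mgp and 2 for Ibsp, where between 5.31% and 8.55% did.

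**Figure D2:**
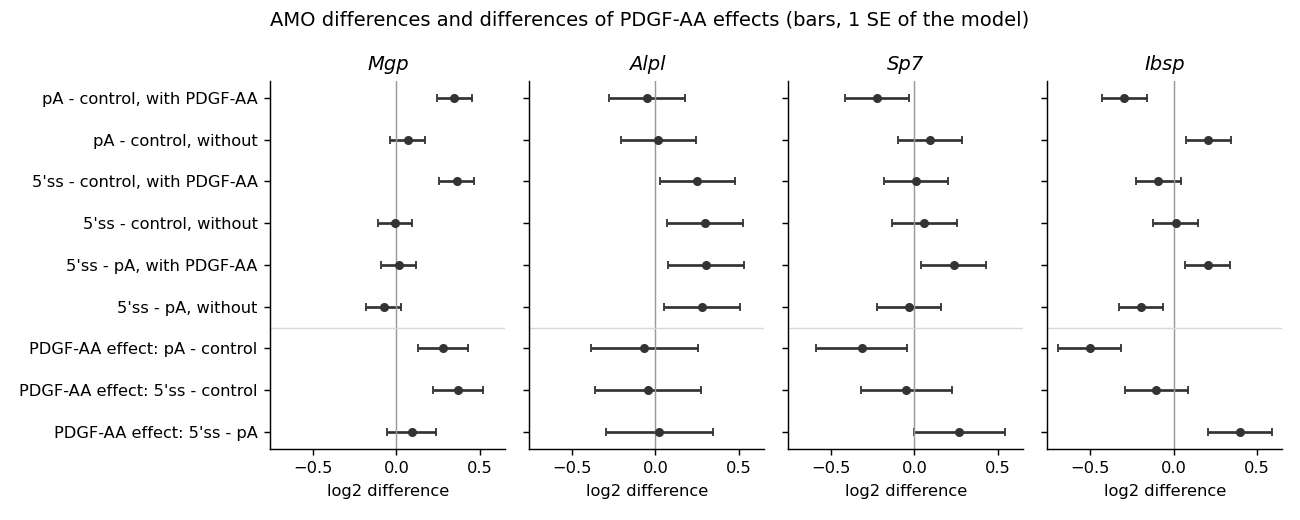
Log2 differences between AMOs with and without PDGF-AA (upper 6 rows) and between the PDGF-AA effects of AMOs (lower 3 rows) for Mgp, Alpl, Sp7 and Ibsp, as points with bars of 1 SE from the limma model over 12 arrays. Mgp stands at 0.35 and 0.36 above control AMO where PDGF-AA was present and near 0 where it was not, and no difference shown passed an adjusted p of 0.05.

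The genes whose values most resembled those of Mgp were sought among 12469 clusters of named genes above the 40 percent mark. The measure was Pearson's r over the 12 arrays. They were Slc25a5 (r = 0.947), Gpx3 (0.909), Cacna1g (0.901), Sgk1 (0.889) and Ndufa4 (0.886). Slc25a5 and Ndufa4 encode mitochondrial proteins, an ADP/ATP carrier and a small protein of the respiratory chain. Gpx3 encodes the secreted glutathione peroxidase, Cacna1g a T-type calcium channel and Sgk1 a kinase induced by serum and glucocorticoids. Their averaged PDGF-AA changes were -0.12, -0.30, -0.17, -0.20 and -0.15, all smaller than that of Mgp, and each was most negative with control AMO. For deviations from the 6 group means, which take out AMO and PDGF-AA alike, r was 0.801 for Slc25a5 and between 0.117 and 0.499 for the other 4. Over the 6 arrays with PDGF-AA alone r lay between 0.631 and 0.930, and over the 6 without it between 0.312 and 0.839. These r were picked as the highest of many and have no test. A pattern over the groups like that of Mgp was favoured by the same choice.

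**Figure D3:**
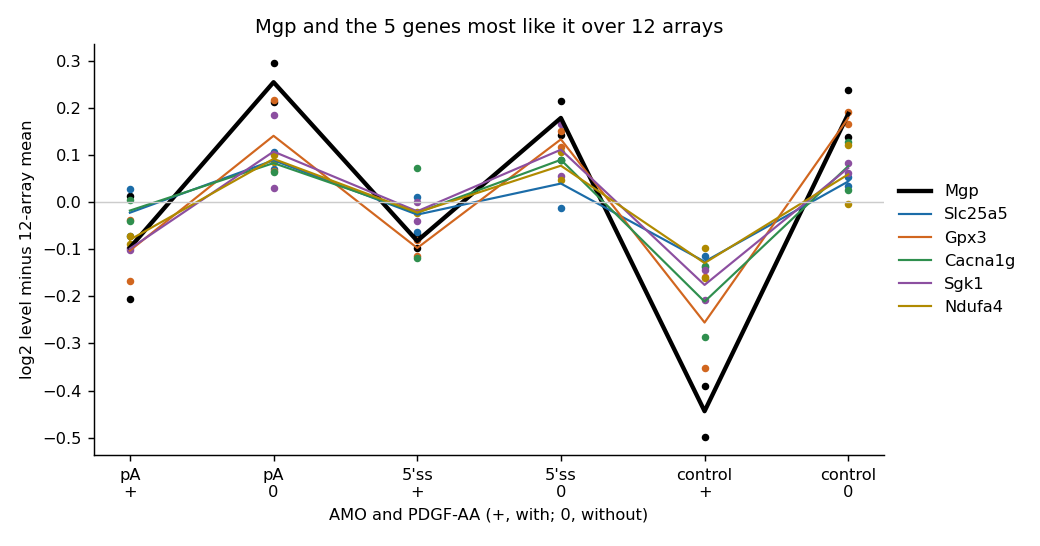
Log2 level minus the mean of the 12 arrays for Mgp (black) and the 5 genes with the highest Pearson's r to it, by AMO and PDGF-AA (+, with; 0, without); points are arrays, and lines join group means only to guide the eye. The group means of all 6 genes are lowest with control AMO and PDGF-AA, which the choice by r favours, and Mgp spans the widest range.

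Other mineralization genes were taken from 5 lists with 64 gene symbols, of which 58 had a cluster of their own. Bglap, Bglap2 and Bglap3, among the other symbols, were not analysed here. Averaged over AMOs, 27 of the 58 were higher with PDGF-AA and 31 lower, with a median change of -0.0050, beside a median of 0.0014 over all clusters. In each of the 9 AMO comparisons and the 3 differences between PDGF-AA effects 0 of 58 passed, with and without the block.

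The Gla proteins and the enzymes of the vitamin K cycle share the carboxylation that Mgp needs. Gas6, a Gla protein that activates TAM receptors, read 12.15 to 12.88 with PDGF-AA and 12.78 to 12.96 without, an averaged change of -0.36 (SE 0.0722). Its PDGF-AA change was -0.51 with pA AMO, -0.03 with 5'ss AMO and -0.55 with control AMO. The 5'ss change exceeded the control AMO change by 0.52 (SE 0.177, unadjusted p = 0.0147 in limma, adjusted p = 1.0). Pros1, the anticoagulant protein S, was at -0.05, the carboxylase Ggcx at 0.02, and the vitamin K reductases Vkorc1 and Vkorc1l1 at -0.13 and 0.01. Both Ggcx and Vkorc1 were bright, with means of 10.68 and 11.14. Of these 6 genes 4 were lower with PDGF-AA, with a median of -0.045.

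Genes of pyrophosphate and phosphate handling were divided, with 5 of 10 higher and 5 lower with PDGF-AA (median -0.0040). Ank, which exports ATP and pyrophosphate and so favours inhibition, had the most negative change, at -0.19, with 8.94 to 9.17 on arrays with PDGF-AA and 9.13 to 9.33 without. Entpd1, an enzyme that degrades extracellular ATP, had the most positive, at 0.32 (SE 0.0778). The phosphate transporters Slc20a1 and Slc20a2 were at -0.05 and -0.02 and the phosphate exporter Xpr1 at -0.01. Between AMOs, Abcc6, a transporter needed for ATP release, was at -0.23 for 5'ss against control AMO, and Phospho1, a phosphatase of matrix vesicles, at 0.08. Nt5e and Phospho1 marked the ends for pA against control AMO, at -0.17 and 0.16. With 5'ss AMO the PDGF-AA effect on Phospho1 was below that with control AMO by a log2 difference of -0.55 (SE 0.228). This difference was the most negative of the list (unadjusted p = 0.0356 in limma) and did not pass after adjustment.

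Among bone and dentin matrix genes, 6 of 11 were higher with PDGF-AA (median 0.011). Postn, which encodes the matrix protein periostin, had the most negative averaged change at -0.52 (SE 0.231), with a wide spread of 8.70 to 10.52 with PDGF-AA and 10.01 to 10.67 without. Its change was 0.13 with pA AMO, -1.10 with 5'ss AMO and -0.60 with control AMO. The bone collagen genes Col1a1 and Col1a2 were at -0.04 and 0.03, and Sparc, a collagen-binding glycoprotein, at 0.01. The dentin and osteocyte genes Dmp1, Dspp, Mepe and Phex had means between 3.16 and 5.35. Omd, a proteoglycan of bone, was at -0.35 for 5'ss against control AMO, the most negative of the list (unadjusted p = 0.00278 in limma, adjusted p = 0.805). It was dim, with a mean of 4.51. Dspp at -0.17 was the lowest for pA against control AMO.

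The transcription factors of the osteoblast lineage had small differences. Their averaged PDGF-AA changes lay between -0.16 for Twist2 and 0.09 for Msx2, with a median of -0.0040 over 14 genes. Runx1, a relative of Runx2, was at -0.02, its partner Cbfb at -0.01, the homeobox factor Dlx5 at 0.00 and the cartilage factor Sox9 at -0.09. With pA against control AMO 12 of 14 were lower (median -0.051, beside -0.011 over all clusters), from -0.17 for Twist1, which restrains Runx2, to 0.13 for Cbfb. With 5'ss against control AMO 8 were higher and 6 lower, from -0.20 for Dlx3 to 0.09 for Sox9.

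Of 17 ligands, receptors and inhibitors, 8 were higher and 9 lower with PDGF-AA (median -0.026). The fibroblast growth factor receptor Fgfr2 was the lowest, at -0.38 (SE 0.108), with 6.58 to 7.56 with PDGF-AA and 7.05 to 7.74 without. Bmp6 was the highest at 0.23 (SE 0.0789), and Bmp4, a ligand that Mgp can bind, was at -0.22 (SE 0.0787). With 5'ss against control AMO, Fgfr2 was also at the upper end, at 0.44 (SE 0.132, unadjusted p = 0.00778 in limma, adjusted p = 0.969, and adjusted p = 0.118 with the block). Bmp6 was at the lower end there, at -0.31 (SE 0.0967, limma adjusted p = 0.993), with 9.03 to 9.24 on the 5'ss arrays and 9.21 to 9.67 on the control AMO arrays. Bmp4 was at 0.34 in that comparison (SE 0.0964, limma adjusted p = 0.920), with 9.84 to 10.06 on the 4 arrays with 5'ss AMO and 9.31 to 9.82 on the 4 with control AMO. For these 3 genes the 5'ss difference ran opposite to the PDGF-AA change. The 5'ss effect of PDGF-AA differed from that with control AMO by 0.43 for Bmp4 and -0.60 for Vdr, the vitamin D receptor, the ends of the list, and neither passed (limma adjusted p = 1.0 each).

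**Figure D4:**
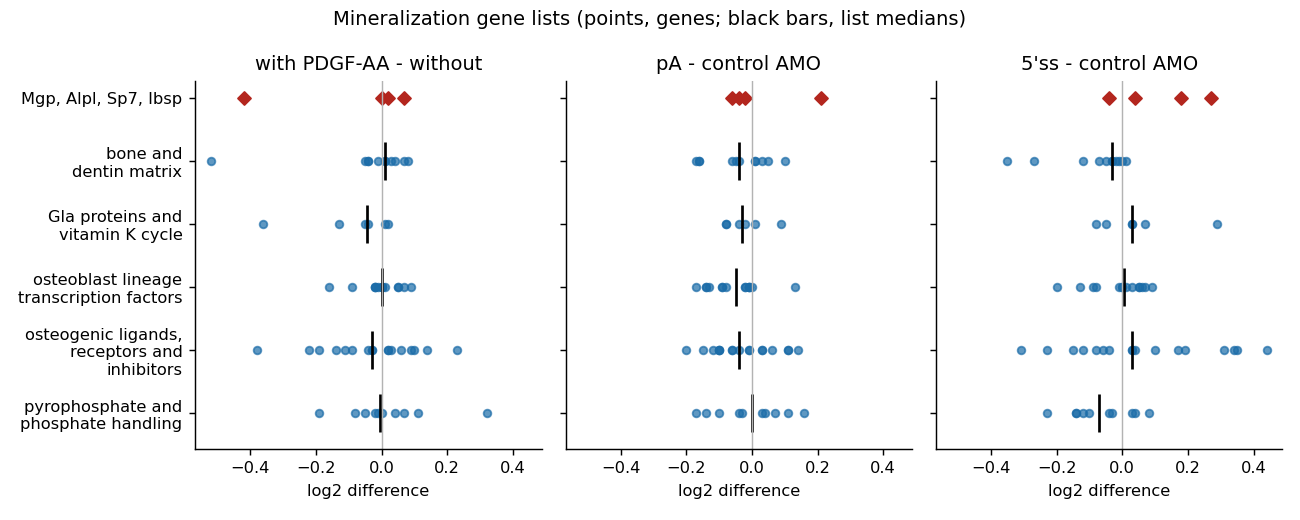
Log2 differences of 58 mineralization genes in 5 lists (points, with the list median as a black bar) and of Mgp, Alpl, Sp7 and Ibsp (diamonds), for PDGF-AA averaged over AMOs, pA against control AMO and 5'ss against control AMO. List medians lie within 0.07 of 0, and Mgp at -0.42 and Postn at -0.52 stand at the lower end for PDGF-AA.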

How the data were processed

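The authors' deposited log2 values of 35556 transcript clusters on 12 arrays come from RMA, and the submitters' processing notes also name Affymetrix Expression Console; versions are not given in the sources used here. Array medians ran from 6.04 to 6.23. Precision is limited by the 2 arrays per group. The annotation gives 21789 clusters 1 symbol and 1621 several, and 12146 are unlisted.

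In limma 3.58.1 (R 4.3.3), each cluster had 1 mean per group, with 6 residual degrees of freedom, or 5 with the replicate block. Calls used a threshold of 0.05 after Benjamini-Hochberg adjustment across 21789 clusters. The code was tested on simulated data. Deviations of same-numbered arrays correlated at 0.20 to 0.61 in 15 pairs of groups, above a criterion of 0.1, so the numbers were taken to pair the samples, from the data and not the labels. The main fit did not use this pairing. SE and p-values are from that fit except where the block, or taking out the replicate number, is named. P-values measure the spread between these replicates. Alternatives were the block, a filter on dim clusters, all clusters, other scalings and moderation, array weights, fewer arrays in the fit and each array left out.

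The genes, the lists and the rule for named genes (all members, the 5 most like Mgp, the ends of each list and any list gene past the threshold) were chosen with earlier results of these data known. A few list genes with smaller changes are named by role, after their values were seen. Promoter windows are RefSeq's (GRCm38.p6).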

Additional observations from a re-analysis of the deposited data

How the results depend on the processing

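No test of the 4 genes passed under any of the 20 alternatives, and the counts of passing AMO comparisons, differences between PDGF-AA effects and list genes in those comparisons stayed at 0. With the replicate block the adjusted p for Mgp with PDGF-AA was 0.155 for 5'ss against control AMO, the lowest of its tests under any alternative. The averaged Mgp change with PDGF-AA of -0.42 ranged from -0.45 to -0.38 when single arrays were left out. Of 12 tested differences per gene under all alternatives, 5 of 240 values turned sign for Mgp, 21 of 240 for Alpl, 19 of 228 for Sp7 and 12 of 228 for Ibsp. The filter on dim clusters removed Sp7 and Ibsp. Leaving out pA AMO with PDGF-AA replicate 2 brought the excess of the pA over the control AMO effect on Mgp to 0.17, and leaving out replicate 1 brought it to 0.39; the cause was not tested. No background was measured, so how far it limits the dim Sp7 and Ibsp was not tested.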
